A study of Mus musculus with 6 samples.

Results

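The secretory airway epithelium of aged mouse lung was represented by 51 cell barcodes, out of 88616 that passed the quality filter and 94392 in all. A barcode is the tag shared by the RNA of 1 droplet, taken as 1 cell, and a UMI (unique molecular identifier) counts 1 captured RNA molecule. Members were chosen by quality and by marker counts. A member had no fewer than 500 genes and 1000 UMIs, and mitochondrial genes made up 15% of its UMIs at most. It also had at least 3 UMIs of Cyp2f2, at least 3 of Scgb3a2, and 0 UMIs of Foxj1, Lamp3, Cdh5, Pdgfra and Ptprc, which mark ciliated, alveolar type 2, endothelial, fibroblast and immune cells. These values chose the members, so the levels of these 7 genes are a description and support nothing. The lowest member held 4 Cyp2f2 UMIs, and the lowest on the other gene held 5 Scgb3a2 UMIs. Asking for only 2 UMIs of both genes would have added 2 barcodes, and asking for 10 would have left 44. In all, 172 barcodes held 3 or more UMIs of both genes. Of these, 3 were lost to the quality filter and 118 to an excluded gene, among them 63 with 3 or more Foxj1 UMIs. A further 28 barcodes would have been kept had each excluded gene been allowed up to 2 UMIs, and this wider set of 79 is used as a check.

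The lungs came from male C57BL/6 mice aged 21 months. The p16-DTR group carried p16-CreERT2 and R26-LSL-DTR, a diphtheria toxin receptor that Cre recombinase, driven by the promoter of p16 (Cdkn2a) and switched on by tamoxifen, unlocks. The control group carried p16-CreERT2 alone. Both groups received tamoxifen for 5 days, then diphtheria toxin for 5 days after a gap of 2 weeks, and recovered for 2 weeks, so neither group was untreated and no young animals were compared. Each library mixed 20000 sorted CD45-negative and 9000 CD45-positive cells of the same tissue, and each group had 3 libraries. The labels do not say more about how the 3 samples of a group relate, so p-values measure the spread between these samples.

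Secretory cells of the conducting airways, of which club cells are the main kind in mice, make the secretoglobins, mucins and antimicrobial proteins of the airway lining fluid. They are also the main airway site of xenobiotic metabolism through cytochrome P450 enzymes, and they can renew themselves and give rise to ciliated cells after injury. Airway epithelium further holds ciliated cells, which move mucus, and basal cells, the stem cells of the larger airways.

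The p16-DTR libraries held 8, 7 and 11 members and the control libraries 6, 9 and 10. The 51 members summed to 1123861 UMIs, with 3235 to 53458 UMIs per barcode and a median of 20380. No barcode sequence was shared among members of different libraries, although 929 sequences occurred in more than 1 library over all retained barcodes. No doublet caller was run. The 5 genes held at 0 remove pairs with those cell types only where the gene was captured, so pairs may remain. No member had more than 2.5 times the median UMI count of its library's members.

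The markers of the label that the rule did not use were found in most members. Scgb1a1, the secretoglobin that defines club cells, was the most abundant gene in 42 of 51 barcodes and made up over 50% of the UMIs in 25. Aldh1a7, an aldehyde dehydrogenase, was detected in 38 and the epithelial adhesion gene Epcam in 29. Endothelial barcodes set a reference for Scgb1a1 alone, since 34.9% of them held a UMI of it, from a source that was not tested. The level there was 82.6 CPM, which is UMIs of a gene per 1000000 UMIs, against 460466 CPM over the members. It was 320 CPM in p16-DTR replicate 1 and 25.8 to 59.5 CPM in the other libraries. The median depths were 16252 UMIs in endothelial barcodes and 20380 in members. Aldh1a7 averaged 120 CPM over the libraries in members, 65.9 CPM in alveolar type 2 and 44.9 CPM in ciliated barcodes, a contrast that was not tested.

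The members fell into 2 kinds that the rule had not used, set apart by Malat1, an abundant noncoding RNA that stays in the nucleus. In 38 barcodes Malat1 was 0.256% of UMIs or less, and in the other 13 it was 0.589% or more. The former are called Malat1-poor here and the latter Malat1-rich, with a dividing line of 0.4% that was chosen after the values were seen. The median was 0.0119% of UMIs in the Malat1-poor barcodes and 2.06% in the Malat1-rich ones. Counting only UMIs other than Scgb1a1, the medians were 0.0287% and 2.29%, and the highest Malat1-poor barcode (0.746%) stayed under the lowest Malat1-rich one (1.37%). Neat1, another nuclear noncoding RNA, was at 0 in 34 of 38 Malat1-poor barcodes and in 0 of 13 Malat1-rich ones.

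**Figure D1:**
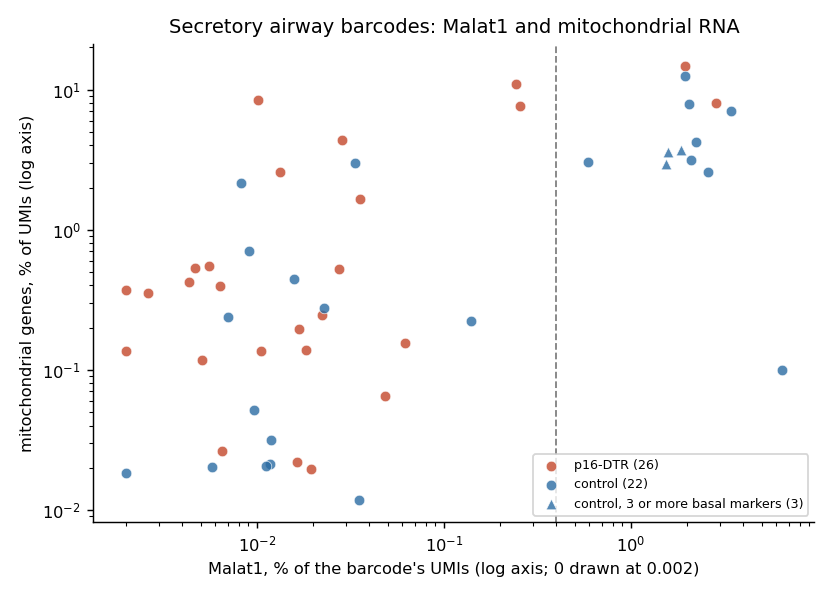
Each point is 1 of the 51 secretory barcodes, with Malat1 as a percentage of its UMIs on the horizontal log axis and mitochondrial genes as a percentage of its UMIs on the vertical log axis. The dashed line is at 0.4%, with 38 barcodes to its left and 13 to its right, and triangles are the 3 control barcodes with 3 or more basal cell markers.

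The 2 kinds differed in more than Malat1, as the plot of Malat1 and mitochondrial RNA shows. Mitochondrial genes had a median of 0.243% of UMIs in Malat1-poor barcodes and 3.68% in Malat1-rich ones. They were under 1% in 30 of the 38 and in 1 of the 13. Transcripts of ribosomal proteins made up a median of 9.78% and 3.55%, and Scgb1a1 a median of 60.2% and 4.26%. In summed counts Epcam stood at 84.0 CPM in the Malat1-poor and 284 CPM in the Malat1-rich kind. Total depth was alike, with medians of 19310 and 22793 UMIs, yet a Malat1-poor barcode held a median of 1624 genes and a Malat1-rich one 4944. Thinned to 5000 UMIs, which left out 2 shallower Malat1-poor barcodes, the medians were 773 and 2037 genes and the ranges overlapped, with 1395 in the highest Malat1-poor and 1210 in the lowest Malat1-rich barcode. The Malat1-poor kind thus spread a like number of RNA molecules over fewer genes. The thinning kept Scgb1a1, with its medians of 60.2% and 4.26%, so fewer UMIs were left for other genes in the Malat1-poor kind. Gene number among UMIs other than Scgb1a1 was not compared, so fewer genes are not shown to be a separate trait. Whether these barcodes hold intact cells was not tested, and every count and share of members below includes them.

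This kind was rare among the other epithelial cells of the same libraries. None of 508 ciliated barcodes and 3 of 548 alveolar type 2 barcodes (0.547%) had Malat1 under 0.4% of UMIs, although both sets had been cleared of the marker genes of other cell types. Among all retained barcodes the share was 4.94%, and among those without a Ptprc UMI 6.20%. In the secretory barcodes it was 100% (8 of 8), 85.7% (6 of 7) and 90.9% (10 of 11) in p16-DTR replicates 1 to 3. In the control replicates it was 16.7% (1 of 6), 77.8% (7 of 9) and 60.0% (6 of 10). The secretory share was the higher in 6 of 6 libraries, with a mean of 71.8% ± 30.2 (SD, n = 6) against 0% in ciliated and 0.507% ± 0.566 in alveolar type 2 barcodes. The line was drawn in the secretory values, so this share carries no test. Median Malat1, which needs no line, was lower than in alveolar type 2 barcodes in 6 of 6 libraries and lower than in ciliated barcodes in 5 of 6. Malat1 was singled out from these values, so this is a description too. The exception was control replicate 1, where 5 of 6 members were Malat1-rich. The comparison sets had to hold a UMI of Foxj1 or Lamp3, while members had to hold 0 of 5 genes. Median numbers of genes were 7128 in ciliated, 6192.5 in alveolar type 2 and 2123 in secretory barcodes. Depth differed too, with medians of 38151.5, 43806 and 20380 UMIs. Per 1000 UMIs the median numbers of genes were 187, 142 and 123. In the wider set of 79 barcodes, 53 (67.1%) were Malat1-poor.

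**Figure D2:**
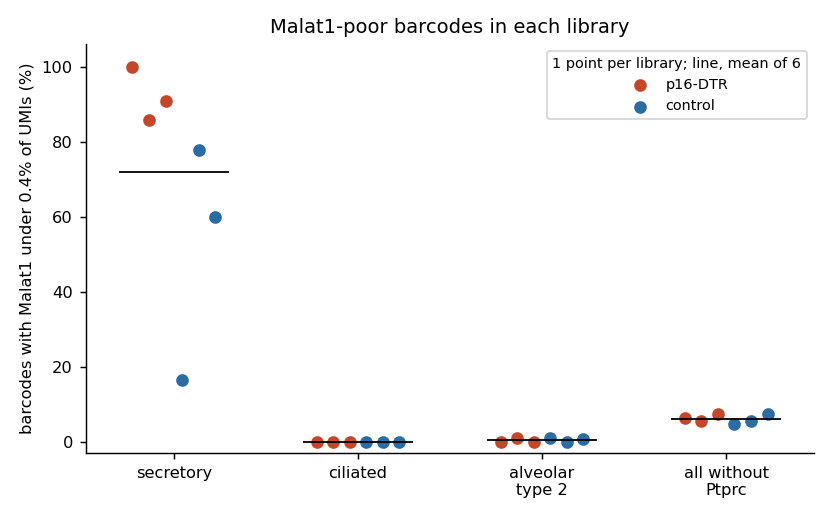
The vertical axis gives the percentage of barcodes with Malat1 under 0.4% of UMIs, with 1 point per library and a line at the mean of 6 libraries. Secretory shares ran from 16.7% to 100%, while ciliated barcodes were at 0% in every library.

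The secretoglobins, small secreted proteins of the airway surface, were the leading products. Scgb1a1 stood at 542650, 335102 and 453272 CPM in the summed members of p16-DTR replicates 1 to 3. In the control replicates it stood at 307881, 652419 and 331166 CPM, so the groups overlapped fully. Scgb3a2, required by the rule, ran from 10670 to 18915 CPM in p16-DTR and from 5506 to 12016 CPM in control libraries. Scgb1c1, a minor secretoglobin, ran from 74.8 to 295 CPM over the 6 libraries and was found in 25 barcodes. Scgb3a1, which is typical of the upper airways, was the uneven one. It reached 13676, 34466 and 11723 CPM in the p16-DTR replicates and 7573, 33.6 and 3238 CPM in the control replicates. The groups did not overlap, which held for 10.7% of all genes tested. In the wider set of 79 barcodes they did, at 8980, 13268 and 24198 CPM in p16-DTR against 9599, 4056 and 10122 CPM in control replicates. In Malat1-poor barcodes alone they overlapped too, at 13676, 41209 and 12725 CPM against 55760.5 (1 barcode), 0 and 6932 CPM.

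**Figure D3:**
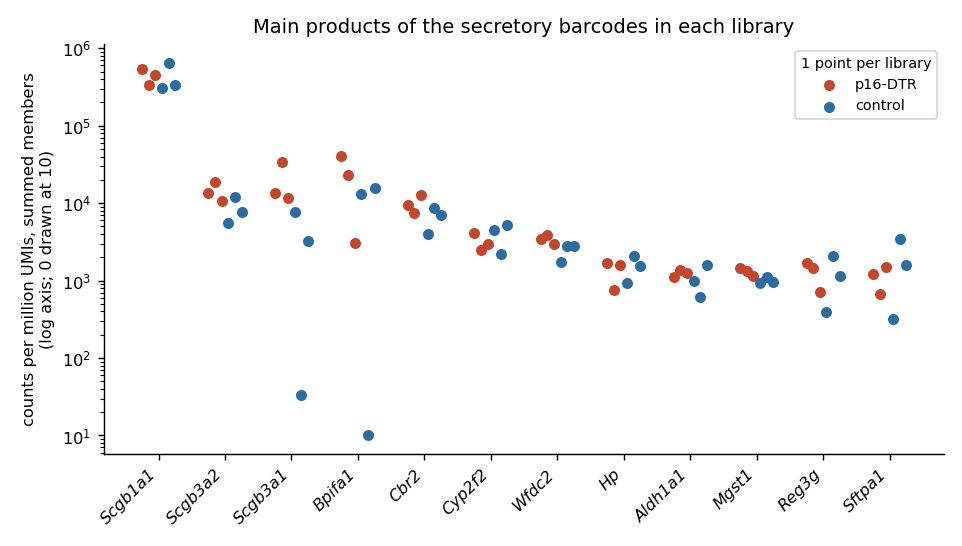
CPM of 12 products of the secretory barcodes, on a log axis, with 1 point per library and a value of 0 drawn at 10. Scgb1a1 lies between 307881 and 652419 CPM, while Scgb3a1 falls to 33.6 CPM and Bpifa1 to 0 in control replicate 2.

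The spread of Scgb3a1 came from few barcodes. It was at 0 UMIs in 30 of the 51 and at 63 or fewer in a further 10, while 11 barcodes held 185 to 1846 UMIs. These 11 were spread as 3, 3 and 3 over the p16-DTR libraries and as 1, 0 and 1 over the control libraries, and 10 of them were Malat1-poor. Other secreted defence genes were found in the same barcodes. Bpifa1, an antimicrobial protein of the upper airway lining, was detected in 10 of the 11 and in 8 of the other 40. Bpifb1, a related lipid-binding protein, was detected in 9 and 3, and Reg3g, an antibacterial lectin, in 11 and 8. Muc5b, the main gel-forming mucin of mouse airways, was detected in 11 and 6, the trefoil factor Tff2 in 11 and 10, and lactoferrin (Ltf) in 8 and 5. Depth was alike, with a median of 20832 UMIs in the 11 and 20126 in the 40. Lypd2 was found in 11 of the 11 and in 34 of the 40, with medians of 37 and 2 UMIs. Surfactant protein A (Sftpa1) went the other way, with a median of 3 UMIs in the 11 and 19 in the 40. The line at 100 UMIs was drawn after the values were seen, so these counts carry no test.

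**Figure D4:**
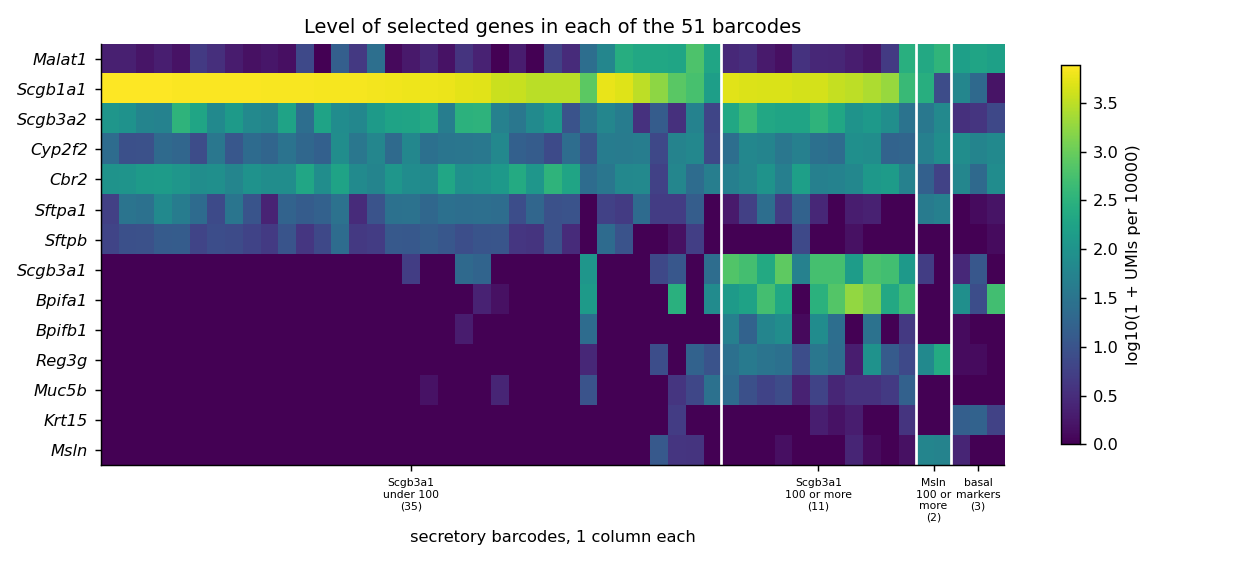
Each column is 1 of the 51 secretory barcodes and each row a gene, coloured by its share of the barcode's UMIs on a log10 scale. The blocks hold 35 barcodes with Scgb3a1 under 100 UMIs, 11 with 100 or more, 2 with 100 or more Msln UMIs and 3 with 3 or more basal markers.

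Because these defence genes were found in the same barcodes, the 150 bases just before the start of 4 of them are shown, from the RefSeq promoter table of build GRCm38.p6. A window was printed only where it overlapped no annotated exon, and capitals mark matches to TNTTTNC on either strand, a forkhead (FOXA-like) core. The motifs CTNNAG (NKX2-1-like) and TTGCNNAA (C/EBP-like) were also searched on both strands and are not marked. Scgb3a1 lies on chromosome 11 (chr11:49663445-49663594, plus strand), Bpifa1 and Bpifb1 on chromosome 2 (chr2:154142730-154142879 and chr2:154190668-154190817, both plus strand), and Reg3g on chromosome 6 (chr6:78468875-78469024, minus strand).
Scgb3a1: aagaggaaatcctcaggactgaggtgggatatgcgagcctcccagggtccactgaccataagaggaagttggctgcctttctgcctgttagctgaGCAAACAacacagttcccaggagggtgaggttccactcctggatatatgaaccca
Bpifa1: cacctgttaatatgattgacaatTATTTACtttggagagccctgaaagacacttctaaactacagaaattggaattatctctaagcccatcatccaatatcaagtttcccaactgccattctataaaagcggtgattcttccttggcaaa
Bpifb1: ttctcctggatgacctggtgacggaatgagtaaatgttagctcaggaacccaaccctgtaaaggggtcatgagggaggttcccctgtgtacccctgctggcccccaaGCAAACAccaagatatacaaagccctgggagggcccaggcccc
Reg3g: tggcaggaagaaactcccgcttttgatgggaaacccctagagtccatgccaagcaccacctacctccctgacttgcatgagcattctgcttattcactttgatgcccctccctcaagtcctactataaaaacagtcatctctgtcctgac

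The Scgb3a1, Bpifa1 and Bpifb1 windows each held 1 match and the Reg3g window 0. Over the 32851 promoter windows of the same length in the table, 30.9% held at least 1 match, so a match in these windows is common. CTNNAG had 2 matches in the Reg3g window, 1 in that of Bpifa1 and 0 in the other two, and was found in 53.2% of all windows. TTGCNNAA had 0 matches in the 4 windows and was found in 5.46% of all. Muc5b and Tff2 were also looked up and are named only.

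The surfactant genes Sftpa1 and Sftpc were compared with their level in endothelial barcodes. Sftpa1 stood at 1209, 677 and 1491 CPM in the p16-DTR replicates and at 319, 3441 and 1607 CPM in the control replicates. Sftpc, the surfactant gene confined to alveolar type 2 cells among lung epithelium, stood at 104 CPM over the members, close to the 80.9 CPM of endothelial barcodes. Sftpa1 was at 1716 CPM in members and 9.43 CPM in endothelial barcodes. The ratio of Sftpa1 to Sftpc UMIs was 16.5 in the members, 0.136 in alveolar type 2 and 0.117 in endothelial barcodes, and ran from 5.55 to 36.9 over the members of the 6 libraries. Across the 51 barcodes, the genes whose share of UMIs tracked that of Scgb1a1 most closely, out of 1071 considered, were Cxcl15 (Spearman's rho = 0.76), Sftpb (0.66), Hp (0.63), Npc2 (0.57) and Cldn10 (0.55). The lowest were Epas1 (-0.82), Hsp90aa1 (-0.75) and Ezr (-0.74). These barcodes share libraries and Scgb1a1 takes up to 76.9% of the UMIs of 1 barcode, which lowers the share of every other gene there, so the values are a description.

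The enzymes that process inhaled compounds formed the next layer. Cbr2, a carbonyl reductase of lung mitochondria, was detected in all 51 barcodes and averaged 8212 ± 2894 CPM (SD, n = 6 libraries). Cyp2f2, the P450 that activates naphthalene, was required by the rule and averaged 3574 ± 1193 CPM. The retinal dehydrogenase Aldh1a1 averaged 1158 ± 339 CPM and was present in 50 barcodes. The conjugation and antioxidant enzymes Mgst1 (1156 ± 210 CPM), Prdx6 (1056 ± 403 CPM) and Gsto1 (677 ± 336 CPM) were found in 51, 49 and 46 barcodes. In ciliated barcodes the means were 5434 CPM for Cbr2, 1346 CPM for Cyp2f2 and 1358 CPM for Aldh1a1. They were 329 CPM for Mgst1, 513 CPM for Prdx6 and 178 CPM for Gsto1, so of these only Aldh1a1 had the higher CPM in ciliated barcodes. Scgb1a1 averaged 437082 CPM in members and 1063 CPM in ciliated barcodes, which lowers the CPM of every other gene in members. In summed counts Aldh1a1 stood at 1497 CPM in Malat1-rich and 972 CPM in Malat1-poor members. Its order between the cell types thus depends on this composition. Of 21 listed phase 1 enzymes, 20 had at least 1 UMI in the members, and of 24 conjugation and antioxidant enzymes, 23. A pair of further enzymes, chosen after their values were seen, illustrate the range beside the ciliated barcodes of the same libraries. The glutathione transferase Gsta3 averaged 375 CPM against 36.5 CPM in ciliated barcodes. Cyp4b1, by contrast, averaged 252 CPM against 639 CPM. These contrasts between cell types were not tested.

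Markers of other cell types differed in level by list. The alveolar type 2 list was the highest, at 844 to 1588 CPM in p16-DTR and 442 to 3564 CPM in control libraries, most of it Sftpa1, which was found in 45 barcodes, with Lamp3 and Etv5 at 0. Mesothelial markers summed to 0 to 22.2 CPM in p16-DTR and 54.4 to 661 CPM in control libraries. Fibroblast markers summed to 0 to 16.1 and 7.46 to 170 CPM, and tuft cell markers to at most 5.35 and 155 CPM. Of the 8 ciliated markers, 6 had a UMI, with a summed level of 5.37 to 77.7 CPM over the 6 libraries and the defining genes Foxj1 and Ccdc153 at 0. The immune list summed to 10.7 to 77.7 CPM with Ptprc and Cd3e at 0, and the endothelial list to 32.1 to 74.8 CPM with Cdh5 at 0. The rule held Lamp3, Foxj1, Ptprc, Cdh5 and Pdgfra at 0, so their zeros support nothing and add nothing to the sums of their lists. Basal markers summed to 0 to 88.8 CPM in the p16-DTR and 0 to 687 CPM in the control libraries. Krt5, the basal keratin, and Trp63, the basal transcription factor, were found in only 3 of the 51 barcodes, all Malat1-rich, 1 in control replicate 1 and 2 in control replicate 3. These held 26, 18 and 14 UMIs of Krt5, 53, 47 and 17 of Krt15, and 12, 30 and 7 of Trp63. They also held 21, 18 and 8 UMIs of the fibroblast gene Dcn, and whether they are single cells was not tested. They held only 69, 195 and 2 Scgb1a1 UMIs out of 34237, 32993 and 34757, and 10, 8 and 21 Scgb3a2 UMIs, but 189, 266 and 243 of Cyp2f2, so the label of secretory cell rests mainly on Cyp2f2 there. A further 2 control barcodes, 1 each in replicates 2 and 3, held over 100 UMIs of mesothelin (Msln) with Reg3g, and were Malat1-rich too.

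The first question of the design is whether the number of secretory cells found differed after toxin treatment of mice with and without the p16-driven receptor. Members were 0.0558%, 0.0475% and 0.0735% of retained barcodes in the p16-DTR replicates and 0.0365%, 0.0711% and 0.0645% in the control replicates. The means were 0.0590% ± 0.0133 and 0.0574% ± 0.0183 (SD, n = 3 each), and the groups overlapped. An exact two-sided permutation test gave p = 0.9, where the smallest p that 3 against 3 allows is 0.1. The 95% Wilson interval of 1 library, for counting error only, ran from 0.0283% to 0.110% in p16-DTR replicate 1 and from 0.0167% to 0.0797% in control replicate 1, and the intervals of all 6 libraries overlapped. The sort mixed CD45-negative and CD45-positive cells at a set ratio, which sets the denominator.

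At the line of 0.4%, the share of Malat1-poor barcodes did not overlap between the groups. It was 92.2% ± 7.23 in the p16-DTR and 51.5% ± 31.4 in the control libraries (SD, n = 3 each). With a line at 0.2% the groups overlapped, at 87.5%, 71.4% and 90.9% in p16-DTR against 16.7%, 77.8% and 60.0% in control replicates. With a line at 1% they did not, at 100%, 85.7% and 90.9% against 33.3%, 77.8% and 60.0%. In the wider set at 0.4% they came close without overlap, at 100%, 64.3% and 87.5% against 33.3%, 62.5% and 46.2%. The line of 0.4% was drawn after the values were seen, so these shares carry no test. Median Malat1 was 0.0184% ± 0.0102 and 0.665% ± 1.07 of UMIs (exact permutation test, p = 0.3, 0.45 adjusted over the 6 properties compared between groups). Median UMIs were 16630 ± 5582 and 23830 ± 3544, and median genes 1693 ± 259 and 2791 ± 1042 (exact p = 0.2 and adjusted 0.4 for both). The median Scgb1a1 share was 49.4% ± 10.9 and 49.9% ± 26.4 (exact p = 1, adjusted 1).

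Cdkn2a, the gene whose promoter drives Cre in this model, had 0 UMIs in all 6 libraries, in 26 p16-DTR and 25 control members. The same held for the tdTomato reporter that the gene list includes. Counts of 0 allow a share of up to 11.5% and 12% of members with a UMI, and a level of up to 6.47 and 4.54 CPM, taking 3 counts as the limit and counting error only. In ciliated barcodes of p16-DTR libraries Cdkn2a was found in 33 of 209 (15.8%) at 6.17 CPM, with a median of 37299 UMIs against 18063 in the p16-DTR members. In control libraries it was found in 1 of 299 ciliated barcodes (0.334%). In alveolar type 2 barcodes it was found in 27 of 230 (11.7%) and 1 of 318 (0.314%). By library, the ciliated level was 7.66, 5.42 and 5.38 CPM in those labelled p16-DTR and 0.352, 0 and 0 CPM in those labelled control. Cdkn2a RNA of ciliated barcodes was thus the higher, not the lower, in the libraries labelled p16-DTR. The share of all genes set apart in this way in ciliated barcodes was not counted. In the wider set, 41 p16-DTR barcodes with a median of 20832 UMIs also had 0 Cdkn2a UMIs, with limits of 7.32% and 2.71 CPM. These limits pool the barcodes of 3 libraries, the ciliated barcodes were deeper, and Scgb1a1 took up much of the members' UMIs, so whether Cdkn2a differed between secretory and ciliated cells was not tested.

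Gene by gene, no gene passed the test between p16-DTR and control members. The planned test asked for at least 10 members per library, which left only 1 library per group and no test. All 6 libraries, with 6 to 11 members each, were therefore fitted, a choice made after the numbers were known. Of 1575 genes with enough counts, edgeR's quasi-likelihood test called 0 (0% of those tested) at an adjusted p of 0.05, and 145 had an unadjusted p under 0.05. DESeq2 on the same counts called 7. The median log2 fold change over all genes tested was -0.13, or -0.39 without the scaling for composition, so a value near these is no change relative to the rest. Groups did not overlap in CPM for 10.7% of the genes tested, which is the background for the genes named next. Overlap was judged throughout in CPM, without edgeR's scaling for composition. The factors of that scaling ran from 0.564 in control replicate 2 to 1.48 in control replicate 3. Groups that overlap in CPM may therefore lie apart on the scale of the edgeR test, and the reverse.

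The genes named next were those with the smallest unadjusted p among genes of at least 50 CPM whose groups did not overlap, 12 in each direction, and none of them was called. Of the 12 with the higher values in p16-DTR, Lypd2, a small surface protein abundant in club cells, stood at 1058, 1410 and 620 CPM in p16-DTR and 469, 183 and 485 CPM in control replicates. Its log2 fold change was 1.63 (SE 0.37, edgeR adjusted p = 0.225). Muc5b stood at 91.3, 677 and 604 CPM against 88.4, 0 and 69.3 CPM, with a log2 fold change of 3.40 (SE 0.91, adjusted p = 0.287). The lowest p16-DTR and the highest control value of Muc5b thus lay close together. Lypd2, Muc5b and Tff2 were concentrated in the 11 barcodes high in Scgb3a1. The p16-DTR libraries held 3 each of these barcodes and the control libraries 1, 0 and 1. Of 221 Muc5b UMIs, 50 came from a barcode of p16-DTR replicate 3 outside the 11, with 14.8% mitochondrial UMIs. A further 48 came from 1 of the 11 in that library. The part of these barcodes in the group differences was not tested. Isg20, an interferon-induced exonuclease, stood at 113, 233 and 214 CPM against 74.8, 37.3 and 69.3 CPM (log2 fold change 1.72, SE 0.43, adjusted p = 0.225).

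The small heat shock protein Hspb1 stood at 355, 400 and 412 CPM in p16-DTR against 177, 149 and 241 CPM in control libraries (log2 fold change 1.11, SE 0.40, adjusted p = 0.481). The RNA-binding protein Ybx1 stood at 596, 955 and 1144 against 388, 377 and 534 CPM (1.06, SE 0.39, adjusted p = 0.481). The remaining 7 were Rtraf, Stard10, Snx3, Tst, P2rx4, Chad and Chpt1, with log2 fold changes from 1.18 (Tst) to 1.66 (P2rx4) and adjusted p from 0.264 to 0.482. Scgb3a1 had a log2 fold change of 2.83 (SE 1.10, adjusted p = 0.482). Scgb1a1 had one of -0.12 (SE 0.92, adjusted p = 0.974), near the median of all genes. No test is given for Cyp2f2 and Scgb3a2, which the rule used.

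Among the genes with the lower values in p16-DTR, Dst, which encodes the cytoskeletal linker dystonin, stood at 10.7, 0 and 10.7 CPM in p16-DTR and at 313, 116 and 424 CPM in control replicates. Its log2 fold change was -4.69 (SE 0.66, edgeR adjusted p = 0.0562). Rarb, a retinoic acid receptor, stood at 10.7, 0 and 0 against 211, 85.7 and 192 CPM (log2 fold change -4.82, SE 0.84, adjusted p = 0.164). The water channel Aqp4 stood at 21.5, 22.2 and 21.4 against 170, 89.5 and 155 CPM (-2.48, SE 0.51, adjusted p = 0.225). The other 9 were the transporter Slco1a5, Lncpint, Psme4, Ahnak, Msln, Atp11b, Nav2, Arhgap26 and Gsap, with log2 fold changes from -5.13 (Slco1a5) to -2.13 (Ahnak) and an adjusted p of 0.225 each. For Msln, 121 and 156 of its 313 UMIs came from the 2 control barcodes named above, and the 3 barcodes with basal markers were control barcodes too. The part of these 5 barcodes in the group differences was not tested.

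The lower genes had their higher levels in Malat1-rich barcodes. Dst was at 535 CPM in Malat1-rich and 5.09 CPM in Malat1-poor barcodes, and Rarb at 293 and 5.09 CPM. All 12 had the higher level in Malat1-rich barcodes, against 3 of the 12 genes with the higher values in p16-DTR. The same order ran through the whole table. Of 604 genes more than 4 times higher in Malat1-rich barcodes (as log2 of CPM plus 5), 556 had a negative log2 fold change between groups, with a median of -0.91, beside 882 negative of all 1575. Of 434 genes higher in Malat1-poor barcodes, 383 had a positive one, with a median of 0.49. Across the 1575 genes, Spearman's rho between the 2 measures was -0.80. Both come from the same barcodes and genes are not replicates, so this is a description.

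**Figure D5:**
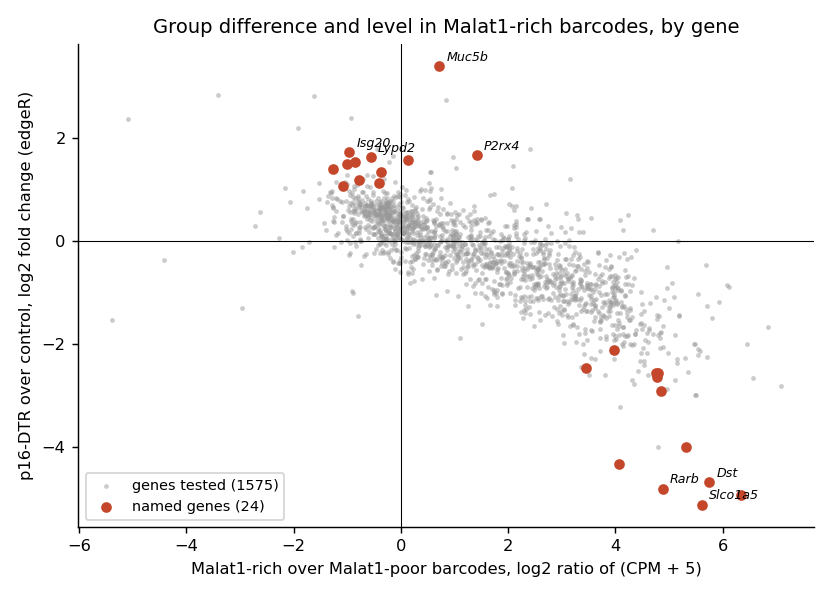
Each point is 1 of 1575 genes, with the log2 ratio of its level in Malat1-rich over Malat1-poor barcodes (CPM plus 5) on the horizontal axis and the log2 fold change of p16-DTR over control on the vertical axis. Red points are the 24 named genes, with the 12 lower ones all on the right.

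Restricting the comparison to Malat1-poor barcodes, without control replicate 1 and its 1 such barcode, left 948 genes, of which edgeR called 0. None of the 12 lower genes had enough counts to be tested there. The 12 higher genes were tested, with values from 0.17 (Chpt1) to 1.63 (Muc5b), a median of 0.82 and a lowest adjusted p of 0.864. Of all 948 genes, 444 were positive, with a median of -0.03. The 12 had been chosen as higher on barcodes that include these, so their direction here supports nothing. The value was 1.25 for Lypd2 and 1.14 for Isg20. Scgb1a1, not one of the 12, was at -1.11 there (SE 0.64, edgeR adjusted p = 0.889). Malat1 itself had a log2 fold change of -1.68 (SE 0.84, adjusted p = 0.555) in all members.

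Of the 16 gene lists written for these cells, none held a called gene. Of 26 mucus and secreted defence genes, 24 had a UMI and 16 were tested, 10 with a positive value and a median log2 fold change of 0.56, beside -0.13 for all genes. Wfdc2, an antiprotease, was at 3465, 3896 and 2988 CPM in p16-DTR and 1747, 2766 and 2765 CPM in control replicates (edgeR adjusted p = 0.742). Groups overlapped for Bpifa1 (log2 fold change 1.78, edgeR adjusted p = 0.682) and Hp (-0.25, edgeR adjusted p = 0.893), which belong to the same list. Heat shock and cold-inducible genes had 8 tested of 14, 7 of them positive, with a median of 0.65. In that list the chaperone Hspa8 was at 628, 633 and 497 CPM against 394, 246 and 461 CPM (edgeR adjusted p = 0.533). The more abundant Hsp90ab1 overlapped between groups in CPM before scaling for composition, at 1090, 1188 and 1032 against 809, 306 and 1040 CPM (edgeR adjusted p = 0.482). Conjugation and antioxidant enzymes had 13 tested, 10 positive, with a median of 0.20, and phase 1 enzymes other than Cyp2f2, which the rule used, had 14 tested, 8 positive, with a median of 0.07.

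The other lists are read beside the 56% of all genes tested that had a negative value. Of 18 airway transcription factors 8 were tested, 6 of them negative, with a median of -0.56. Nfib, Klf5 and Ehf led that list, with means of 173, 156 and 135 CPM, and each was higher in Malat1-rich than in Malat1-poor barcodes (459 against 25.5, 355 against 81.4 and 314 against 57.3 CPM). Immediate early genes, which also respond to tissue dissociation, had 13 tested, 8 negative, with a median of -0.19. Fos ran from 16.1 to 766 CPM in p16-DTR and from 18.6 to 789 CPM in control libraries, so libraries of 1 group differed more than the groups. Glucocorticoid-induced genes had 6 tested, 5 negative, with a median of -0.35. Endoplasmic reticulum genes had 10 tested, 7 negative, with a median of -0.18, and ion and water transport 7 tested, 4 positive, with a median of 0.10. Secretoglobins other than Scgb3a2, which the rule used, had 3 tested, 2 positive, with a median of 0.28.

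Genes linked to senescence were sparse. The 19 genes of the p53 and cell cycle arrest list had 0 tested and summed to 161 to 214 CPM in p16-DTR and 179 to 542 CPM in control libraries. Cdkn1a (p21), a cell cycle inhibitor, was found in 14 barcodes, at 10.7 to 55.5 and 11.2 to 85.6 CPM. The senescence secretory list had 2 tested of 30 (median -1.12) and summed to 123 to 355 CPM in p16-DTR and 645 to 1326 CPM in control libraries. Its leading gene, the chemokine Ccl20, came from 5 barcodes, 4 of them Malat1-rich, at 0, 22.2 and 0 CPM against 6.80, 556 and 812 CPM. Interferon response genes had 1 tested and summed to 247 to 488 and 367 to 722 CPM. MHC class II genes had 0 tested, the Notch list 2 and the circadian clock 1.

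Whether the group difference in secretory cells itself differed from that in ciliated or alveolar type 2 cells was tested with an interaction term, with the library as a block. Against ciliated barcodes 26 of 10307 genes passed in edgeR (0.252%), 1 with the higher and 25 with the lower difference in secretory cells. Against alveolar type 2 barcodes 27 of 9597 passed (0.281%), 5 higher and 22 lower. The higher ones there include Scgb3a2, which the rule used, so that call supports nothing. Malat1 was among the lower genes in both comparisons, at -2.38 (adjusted p = 0.00422) and -2.38 (adjusted p = 0.0187), and was singled out after its values were seen. Each of these 2 Malat1 calls held in 4 of 10 alternatives, and both were lost without p16-DTR replicate 1 (adjusted p = 0.991 and 0.982), control replicate 1 (0.123 and 0.127) or control replicate 3 (0.432 and 0.360). Dst passed both, with differences of log2 fold changes of -4.36 (adjusted p = 0.000818) and -4.56 (adjusted p = 0.000104). In ciliated barcodes Dst averaged 87.8 ± 14.6 CPM in p16-DTR and 105 ± 0.505 CPM in control libraries (SD, n = 3 each). The 1 higher gene against ciliated barcodes was Tff2, at 876, 2009 and 289 CPM in secretory barcodes of p16-DTR and 238, 0 and 334 CPM in those of control replicates. Its groups overlapped there, with a log2 fold change of 2.81 (adjusted p = 0.481). In ciliated barcodes Tff2 averaged 1.92 ± 1.38 CPM in p16-DTR and 3.67 ± 1.62 CPM in control libraries (SD, n = 3 each). These values, 0.722 to 5.28 CPM by library, lie near the floor, so the ciliated part of the difference rests on few UMIs. The difference of log2 fold changes was 4.05 (adjusted p = 0.000818), and it did not pass in the wider set (1.49, adjusted p = 0.864) or in Malat1-poor barcodes (2.79, adjusted p = 1).

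The number of calls depended on which barcodes and libraries entered. Without control replicate 1 it was 10 against ciliated and 19 against alveolar type 2 barcodes, and Dst still passed both (adjusted p = 0.00864 and 0.00103). Dst did not pass in the wider set (adjusted p = 0.436 and 0.764) or in Malat1-poor barcodes alone (adjusted p = 1 for both), where its differences turned to 1.01 and 0.84. Using Malat1-poor barcodes alone, without control replicate 1, left 0 edgeR calls against ciliated barcodes, where 244 genes had an unadjusted p under 0.05, and 5 against alveolar type 2. In the wider set of 79 barcodes the calls were 9 and 2. In Malat1-poor barcodes Dst stood at 10.7, 0 and 5.92 CPM in p16-DTR and 0, 4.34 and 0 CPM in control libraries. Leaving out 1 library at a time gave 6 to 60 calls against ciliated and 10 to 61 against alveolar type 2 barcodes, the lowest without control replicate 3 and the highest without p16-DTR replicate 2.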

How the data were processed

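Single-cell 3' libraries (10x Genomics GEM-X) of 6 lungs were read as deposited matrices of raw UMI counts per gene and barcode, which the authors made with Cell Ranger 8.0.1 on mm10, per the submitters' processing notes; cell-calling settings are not given in the sources used here. The other deposited files hold barcodes and gene names. Members were picked by the rule above and their counts summed per library. The members and gene lists were chosen with earlier results of these data known. Sums were tested with edgeR 4.0.16 (quasi-likelihood, filterByExpr, TMM, Benjamini-Hochberg at 0.05), with DESeq2 1.42.0 and limma 3.58.1 as alternatives (limma on log2 of mean CPM plus 10), in R 4.3.3, checked on simulated counts. The SE is the fold change divided by the root of the F statistic. Shares were compared with exact permutation tests over libraries. Named genes were the label's markers, Cdkn2a, Cdkn1a and Hbegf, the 10 most abundant genes, the 3 most abundant of each list, up to 12 genes per direction by unadjusted p (mean of at least 50 CPM, groups not overlapping) and up to 3 by interaction p. Ciliated barcodes had at least 3 Ccdc153 UMIs and a Foxj1 UMI, alveolar type 2 barcodes at least 20 Sftpc UMIs and a Lamp3 UMI, each with the other types' genes at 0; endothelial barcodes had at least 3 Cdh5 UMIs. Each library held 254200305 to 344421685 UMIs over 13482 to 17332 barcodes. GENCODE M21 matched 31011 of 31054 gene identifiers.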

Additional observations from a re-analysis of the deposited data

Results flagged for a closer look

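The tests of whether the group difference in secretory barcodes differed from that in another epithelial type brought up 6 genes for a closer look. Against ciliated barcodes the difference of log2 fold changes was 4.05 for Tff2, -4.36 for Dst and -11.39 for Tox, a nuclear factor. Tox was at 0 in all 3 p16-DTR libraries and in control replicate 1, and at 89.5 and 188 CPM in the other control libraries, so its fitted value depends on the prior count and bounds nothing. Against alveolar type 2 barcodes the difference was -4.56 for Dst, -6.13 for the matrix protein gene Abi3bp and -4.77 for the RNA-binding protein gene Rbms3. Abi3bp stood at 877, 3.73 and 1187 CPM in the control replicates and at 10.7 CPM or less in p16-DTR. Rbms3 stood at 605, 29.8 and 387 CPM in the control replicates and at 16.1 CPM or less in p16-DTR. Tox was found in 0 Malat1-poor and 5 Malat1-rich barcodes, Abi3bp in 3 and 4, Rbms3 in 4 and 11, and Dst in 3 and 11. In Malat1-poor barcodes alone, without control replicate 1, Tff2 (2.79), Dst, Tox and Rbms3 had an edgeR adjusted p of 1, and no value was obtained for Abi3bp. Without control replicate 1 alone, these 5 genes passed. In the wider set of 79 barcodes, with up to 2 UMIs of excluded genes, none of the 5 passed (adjusted p from 0.436 for Dst to 1 for Tox). Without control replicate 3, Tox (adjusted p = 0.147) and Abi3bp (adjusted p = 0.0881) no longer passed. Malat1 had differences of -2.38 against ciliated and -2.38 against alveolar type 2 barcodes. Neither passed without p16-DTR replicate 1 (adjusted p = 0.991 and 0.982), without control replicate 1 (0.123 and 0.127), without control replicate 3 (0.432 and 0.360) or in the wider set (0.140 and 0.815). The difference against ciliated barcodes also missed the threshold without p16-DTR replicate 3 (0.0901), and that against alveolar type 2 with library size alone (0.108). Groups of 3 libraries are too small for a check of single outlying libraries.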

How the results depend on the processing

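With 6 to 11 barcodes per library, the count of genes called between groups, 0 in edgeR, moved with the method. It was 7 with DESeq2, 90 with no filter on low counts, 3 with both marker genes at 10 UMIs or more, 1 at 2 or more, 11 with equal numbers of barcodes per library and 2 with limma, and ran from 0 to 27 as each library was left out (7 without control replicate 1, 27 without control replicate 2). The cause was not tested. It was also 0 with RLE factors, library size alone, at most 5% mitochondrial UMIs, Malat1-poor barcodes only and up to 2 UMIs of excluded genes. Calls against ciliated barcodes were 12 with library size alone, 0 in Malat1-poor barcodes, 9 in the wider set and 6 to 60 without 1 library. Against alveolar type 2 they were 14, 5, 2 and 10 to 61. Against ciliated barcodes each left-out library moved the count by over 1.5 times (7, 60 and 8 without p16-DTR replicates 1 to 3, 10, 48 and 6 without control replicates 1 to 3). Against alveolar type 2 barcodes the counts were 17, 61 and 13, and 19, 54 and 10.

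The difference in share of retained barcodes (0.00161 percentage points) turned to -0.452 of Epcam-positive barcodes, -0.000563 at 10 UMIs, -0.00305 at 2 UMIs and -0.00222 at 5% mitochondrial UMIs. It ran from -0.0088 to 0.00846 without 1 library, with -0.00566 without p16-DTR replicate 3. Of 27 genes with a fold change, 24 of them chosen for groups that do not overlap, 12 passed 0.05 in at least 1 alternative. Dst passed in 8 of 18, Rarb in 4 of 18, Slco1a5 in 4 of 16 and Msln in 3 of 15; none of the 12 lower genes could be tested in Malat1-poor barcodes. Scgb1a1 turned to 0.0478 with no filter, 0.201 with equal numbers, 0.0736 with limma, 0.87 in the wider set and ran from -0.373 to 1.19 without 1 library (above 0 without p16-DTR replicate 2 or 3 or control replicate 2). Its lowest value, -1.11, was that in Malat1-poor barcodes without control replicate 1 (edgeR adjusted p = 0.889). In Malat1-poor barcodes Malat1 turned to 0.0398 between groups and 0.00915 against alveolar type 2 barcodes, and Dst to 1.01 against ciliated and 0.84 against alveolar type 2 barcodes. The Malat1-poor share, 74.5%, was 70.6% with a line at 0.2%, 76.5% at 1% and 69.8% to 82.2% without 1 library.

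With the replicate number as a block, edgeR called 0 genes, 69 had an unadjusted p under 0.05, and Scgb1a1 turned to 0.27. No pairing by number was seen: same-numbered libraries had correlations of -0.39, -0.50 and -0.12, and none correlated best with its own number. With so few barcodes per library this check cannot exclude that same-numbered samples were handled together. The fit on libraries with at least 10 barcodes was not run, since 1 library per group remained.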
